A study of Mus musculus with 13 samples.

Results

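The regions described here are 300 stretches of open chromatin that were called in every library and ranked higher in telencephalon-derived than in brainstem-derived oligodendrocyte progenitor cell (OPC) cultures. Overlapping ATAC-seq peaks of 13 libraries joined into 99746 merged peaks, of which 13075 were found in all libraries and 12751 of these lay on autosomes (the shared peaks). Within each library the shared peaks were ranked from 0 to 100 by fold enrichment over local background, so that a percentile gives the standing of a peak among the shared peaks of its own library. The score of a peak was the mean percentile in telencephalon minus that in brainstem, computed within control and within K27M and averaged, and the 300 peaks with the highest scores were kept (2.35% of the shared peaks). The peaks were thus selected on the measured regional difference, and that difference is given below as a description without a test.

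All cultures came from mouse pups at postnatal day 5 to 7 whose brainstems and dorsal telencephalons were pooled by region and genotype, so that 1 culture stands for several animals. By the methods of the study, the dorsal telencephalon held cortex, corpus callosum and hippocampus. The sample labels call the telencephalon cultures cortex. K27M cultures carried an H3.3 K27M knock-in at the endogenous histone gene that Cre recombinase switches on, and control cultures came from pups of the same breeding. The labels name the litters AMGFAP-Cre;K27M, and the methods of the study describe a human GFAP promoter that drives Cre in neural stem and progenitor cells, so that the allele is not restricted to OPCs. Cells were depleted of endothelial cells and microglia on a lectin-coated dish, caught on an antibody to PDGFRa and kept without differentiation in a proliferation medium with PDGF. There were 3 control brainstem (cultures 51, 59 and 61), 3 K27M brainstem (41, 59 and 61), 3 control telencephalon (51, 59 and 61) and 4 K27M telencephalon libraries (41, 51, 59 and 61). The comparison of regions asks whether OPCs in culture retain regional chromatin, and that of genotypes whether K27M changes it.

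OPCs are dividing glial precursors that populate the whole central nervous system and give rise to myelinating oligodendrocytes. They arise from patterned neural progenitors, and forebrain and hindbrain progenitors are set apart by homeobox transcription factors and by enhancers, short regulatory DNA stretches that often lie in introns or between genes. ATAC-seq uses the Tn5 transposase to cut and tag DNA where nucleosomes leave it accessible, so that active promoters and enhancers appear as peaks. Olig2 and Sox10, factors that define the oligodendrocyte lineage, bind E-box and SOX motifs at such elements.

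The central bases of the leading regions are shown first, for the highest scores at promoters (Dnhd1 and Irx5) and outside promoters (Pgap1, Cacna1e and Foxo1). They were read from the plus strand of GRCm38, the assembly of mm10, and any base within an annotated exon was left out, which shortened the Dnhd1 stretch to 130 bases and removed that of Clvs2, the promoter with the next highest score. Capitals mark matches, on either strand, to the 18 short transcription factor motifs searched.

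Dnhd1 promoter, chr7:105650646-105650775: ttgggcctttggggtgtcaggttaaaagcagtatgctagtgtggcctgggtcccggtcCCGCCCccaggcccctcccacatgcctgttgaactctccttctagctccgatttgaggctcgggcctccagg
Irx5 promoter, chr8:92356544-92356843: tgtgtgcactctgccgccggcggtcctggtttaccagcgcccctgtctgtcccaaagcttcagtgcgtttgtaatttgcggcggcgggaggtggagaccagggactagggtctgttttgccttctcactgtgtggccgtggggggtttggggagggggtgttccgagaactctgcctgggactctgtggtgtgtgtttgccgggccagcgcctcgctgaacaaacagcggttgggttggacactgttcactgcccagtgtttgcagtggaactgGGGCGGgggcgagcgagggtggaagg
Pgap1 outside genes, chr1:54585351-54585650: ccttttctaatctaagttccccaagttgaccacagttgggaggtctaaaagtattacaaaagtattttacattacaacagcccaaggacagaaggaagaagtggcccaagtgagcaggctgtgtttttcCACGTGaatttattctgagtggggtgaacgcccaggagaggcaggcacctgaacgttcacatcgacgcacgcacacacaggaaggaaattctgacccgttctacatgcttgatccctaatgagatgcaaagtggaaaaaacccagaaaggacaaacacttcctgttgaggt
Cacna1e intron, chr1:154532817-154533116: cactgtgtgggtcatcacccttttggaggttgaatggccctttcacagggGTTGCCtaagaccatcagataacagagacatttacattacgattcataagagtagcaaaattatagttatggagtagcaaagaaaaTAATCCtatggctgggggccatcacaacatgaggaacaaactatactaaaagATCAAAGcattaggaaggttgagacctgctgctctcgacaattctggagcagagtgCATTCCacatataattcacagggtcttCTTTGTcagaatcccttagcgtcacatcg
Foxo1 outside genes, chr3:52511039-52511338: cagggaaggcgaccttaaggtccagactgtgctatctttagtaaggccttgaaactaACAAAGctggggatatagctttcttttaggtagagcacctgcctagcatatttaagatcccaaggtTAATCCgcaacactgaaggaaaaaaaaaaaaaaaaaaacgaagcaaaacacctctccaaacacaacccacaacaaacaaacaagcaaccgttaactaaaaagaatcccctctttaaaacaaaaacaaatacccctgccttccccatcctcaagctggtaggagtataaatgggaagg

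The Irx5 stretch was 62.3% G or C with 17 CpG dinucleotides, whereas the Pgap1 stretch was 46.0% G or C with 7. Annotated repeats made up 55% of the Cacna1e stretch and 39% of the Foxo1 stretch, against 7% at Pgap1 and 0% at Dnhd1. The Dnhd1 and Irx5 stretches each held 1 match, to GGGCGG, the box bound by SP and KLF factors. That of Pgap1 held 1 match, to CACGTG, the E-box of MYC and USF. The Cacna1e stretch held 5 matches, to GTTGCC (RFX), TAATCC (OTX), ATCAAAG (TCF/LEF), CATTCC (TEAD) and ACAANG (SOX). The Foxo1 stretch held 1 match each to ACAANG and TAATCC. A match is a run of letters and does not show that a factor was bound.

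The motif with the largest ratio between the 300 peaks and all shared peaks was CATATG, an E-box that OLIG factors prefer. It is shown with 15 bases on each side in the 4 highest-scoring peaks that hold it in their central 300 bp and outside exons. These were selected after the motif counts were seen.

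Adck1 outside genes, chr12:88522959-88522994: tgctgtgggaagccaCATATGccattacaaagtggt
Masp1 intron, chr16:23504563-23504598: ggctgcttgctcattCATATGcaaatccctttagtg
Cux2 promoter, chr5:121926202-121926237: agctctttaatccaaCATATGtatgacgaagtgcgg
Dhx15 outside genes, chr5:52267084-52267119: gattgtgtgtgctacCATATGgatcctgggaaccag

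The central 300 bp at Adck1 held 2 copies of CATATG and those of the other 3 peaks 1 each. Scores were 37.9 at Adck1, 33.0 at Masp1, 30.4 at Cux2 and 29.8 at Dhx15.

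Between 16879 peaks (control telencephalon culture 59) and 52466 peaks (control brainstem culture 61) were called per library. Read counts were not part of the peak lists, so the depth is unknown, no counting interval can be given for an enrichment, and p-values measure the spread between cultures. Of 8 OPC marker genes, 7 had a promoter peak in every library, among them Pdgfra, Olig2 and Sox10; Cspg4 had one in some. Of 15 microglial and endothelial markers, 0 had a promoter peak in every library and 9 had none in any library. Brainstem libraries had promoter peaks at 2 to 5 of these 15 genes and telencephalon libraries at 1 to 5. Among 15 astrocyte markers the range was 10 to 14 in brainstem and 5 to 13 in telencephalon libraries, and among 15 neuronal markers 9 to 14 and 7 to 13. The part of other cell types in the results below was not tested.

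The 300 peaks were of ordinary strength, and their regional shift was a matter of rank among peaks that were open everywhere. The median of their mean percentile was 50.2, the same as over all shared peaks (50.2), and their median fold enrichment over all libraries was 3.53. Only 2.33% of them had a mean percentile above 80 and 1.00% one below 20, against 13.9% and 14.1% of all shared peaks. A peak near either end of the ranking has less room to move between regions, so the selection favours the middle.

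The median percentile of the 300 peaks was lowest in control brainstem culture 51 (27.8) and highest among brainstem libraries in control brainstem culture 61 (41.6). Among telencephalon libraries it ran from 57.9 in K27M culture 59 to 67.7 in control culture 59. The medians of the 6 brainstem and 7 telencephalon libraries did not overlap, which the selection imposes. Single peaks within a library were spread widely, with quartiles of 15.0 and 47.2 in control brainstem culture 51 and of 52.6 and 82.6 in control telencephalon culture 59.

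**Figure D1:**
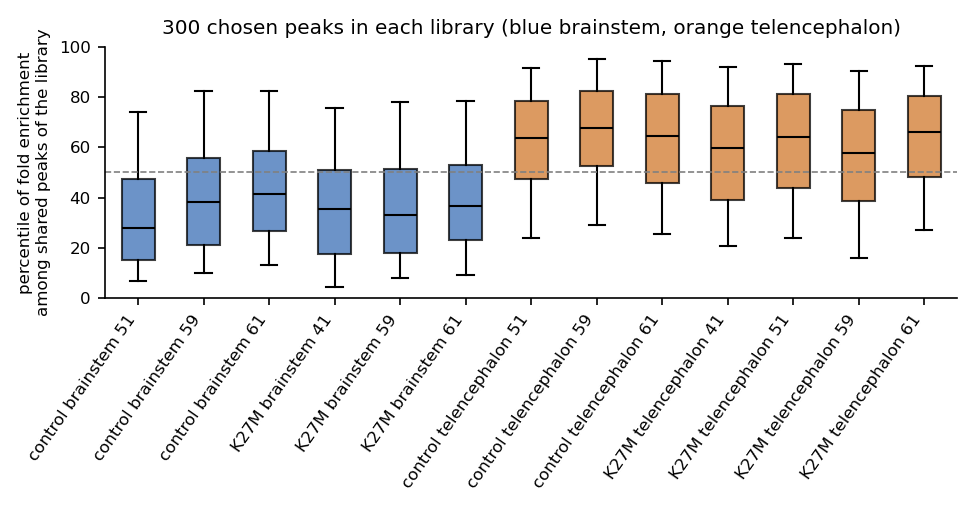
Percentile of fold enrichment (vertical axis, 0 to 100) of the 300 chosen peaks in each of the 13 libraries (horizontal axis, group and culture number). Boxes span the quartiles with the median as a line, whiskers run from the 5th to the 95th percentile of the 300 peaks, and the dashed line at 50 is the middle of all shared peaks. All 6 brainstem medians (27.8 to 41.6) lie under the line and all 7 telencephalon medians (57.9 to 67.7) above it.

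Scores of the 300 peaks ran from 18.7 to 48.0 with a median of 22.2, whereas the SD of the score over all shared peaks was 9.10. The 300 lowest scores, which mark the shared peaks that ranked higher in brainstem, had a median of -21.9 and reached -43.8, so the 2 tails of the ranking were of like size. The 3 weakest of the chosen peaks, at Creb5, Zfp738 and Dennd4b, scored 18.77, 18.76 and 18.75. The 3 next peaks, at Draxin, Tom1l2 and Zfp454, scored 18.74, 18.67 and 18.64. No step in the score separated the chosen peaks from the rest.

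Complete separation of the regions was rare. In 11 of the 300 peaks every telencephalon library ranked above every brainstem library, and 13 of all 12751 shared peaks (0.102%) did so. The 2 that were not among the 300 lay at the promoters of Brinp2 and Dscam, whose scores were 16.0 and 18.3. In the opposite direction, 5 shared peaks had every brainstem library above every telencephalon library. Within control alone, 108 of the 300 peaks and 681 shared peaks (5.34%) had all telencephalon above all brainstem libraries. Within K27M alone these were 90 of the 300 and 358 shared peaks (2.81%). The rule used these contrasts, so the counts describe the selection. Leaving out any 1 library, which relaxes the criterion, gave 15 to 25 separated peaks among the 300 highest scores, the most without control brainstem culture 59. Without control telencephalon culture 59, the shortest list, 16893 peaks were shared and 167 of the 300 peaks were still among the 300 highest scores. Culture numbers allowed 6 pairs of a brainstem and a telencephalon library of the same genotype. Of the 300 peaks, 84 were higher in telencephalon in all 6 pairs, 146 in 5, 62 in 4 and 8 in 3. The score was built from the same libraries, so this agreement also describes the selection. It was not counted over all shared peaks. Per pair the share ran from 76.7% (K27M culture 59) to 89.7% (control culture 51), with about 50% of all shared peaks higher in telencephalon in each pair (49.2% to 51.0%).

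The highest score, 48.0, belonged to a peak outside genes (chr1:54584494-54586507), 27819 bp upstream of the nearest coding start, that of Pgap1, which encodes an enzyme that remodels GPI anchors. Its percentile was 18.1, 28.9 and 24.9 in control brainstem cultures 51, 59 and 61 and 12, 7.19 and 22.6 in K27M brainstem cultures 41, 59 and 61. In telencephalon it was 86.6, 78.1 and 65.2 in control cultures 51, 59 and 61 and 43.7, 61.7, 59.2 and 64.3 in K27M cultures 41, 51, 59 and 61. The lowest telencephalon library stood 14.7 points above the highest brainstem library, the widest gap among the shared peaks. In fold enrichment, which is not normalised between libraries, it was 3.00 ± 0.28 in brainstem (SD, n = 6) against 3.72 ± 0.40 in telencephalon (SD, n = 7). The values overlapped, with 3.50 in control brainstem culture 61 and 3.27 in control telencephalon culture 59. These libraries had the highest and the lowest median fold over all shared peaks, 4.05 and 2.89.

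Irx5, an Iroquois homeobox gene known for patterning of the hindbrain and spinal cord, had the third highest score (44.5, or 12.1 with the −log10 p ranked in place of the fold). The peak (chr8:92355305-92358082) was 2778 bp wide and centred 931 bp upstream of the start. Its percentile was 7.42, 13.4 and 2.80 in control brainstem cultures 51, 59 and 61 and 4.27, 6.77 and 6.89 in K27M brainstem cultures 41, 59 and 61. In telencephalon it was 25.2, 63.1 and 31.3 in control cultures 51, 59 and 61 and 57.1, 40.4, 92.1 and 62.1 in K27M cultures 41, 51, 59 and 61. By fold, all 6 brainstem libraries thus had it among their weakest shared peaks, and all 7 telencephalon libraries ranked it higher. Over the shared peaks the percentile fell with width in every library (Spearman correlation from -0.428 to -0.242). This peak was wider than the median shared peak (1666 bp), and the part of width in its rank was not tested. The regional difference was 32.0 points in control and 57.0 in K27M, and the interaction, fitted with culture number as a block, was 29.0 ± 13.3 points (SE) and did not pass (limma, adjusted p = 0.930). Irx5 was 1 of 51 genes on a list of brainstem and hindbrain identity genes, and the peak was open in all brainstem libraries too. A ranking of accessibility does not give expression.

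In an intron of Cacna1e, which encodes the pore of a neuronal R-type calcium channel, the percentile ran from 22.9 to 68.6 in brainstem (median 41.7) and from 81.3 to 92.9 in telencephalon (median 89.9). The 7 telencephalon values lay close together and 12.7 points above the highest brainstem value. Fold enrichment was 3.51 ± 0.47 (SD, n = 6) and 4.30 ± 0.54 (SD, n = 7). The peak (chr1:154532239-154533695) lay 111812 bp upstream of the nearest start of the gene.

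At the promoter of Dnhd1, which encodes a dynein heavy chain domain protein, the percentile ran from 9.92 to 61.7 in brainstem (median 36.6) and from 59.3 to 99.3 in telencephalon (median 77.6). The groups overlapped at 1 brainstem library, control culture 51, which reached 61.7. A region 242853 bp downstream of the start of Foxo1, a forkhead factor restrained by insulin signalling, ran from 20.9 to 52.5 (median 27.7) and from 53.1 to 91.5 (median 67.1). Its groups were separated by 0.565 points.

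A region nearest to Adck1 but 162148 bp from its start ran from 9.78 to 36.3 in brainstem (median 15.4) and from 43.7 to 77.8 in telencephalon (median 53.1), without overlap. The remaining regions among the 12 highest scores lay in introns of Pdzrn3 (an E3 ubiquitin ligase), Nyap2 (an adaptor of neuronal PI3K signalling), Ppp2r1b (a scaffold subunit of protein phosphatase 2A) and Polr3b (a core subunit of RNA polymerase III), at the promoter of Clvs2 and outside genes near Hs1bp3. Their scores were between 34.7 (Polr3b) and 39.9 (Pdzrn3), and in each the regions overlapped. The widest overlap was at Hs1bp3, where brainstem libraries reached 72.7 and 1 telencephalon library fell to 28.4. Distal regions carry the name of the nearest coding start by position only.

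**Figure D2:**
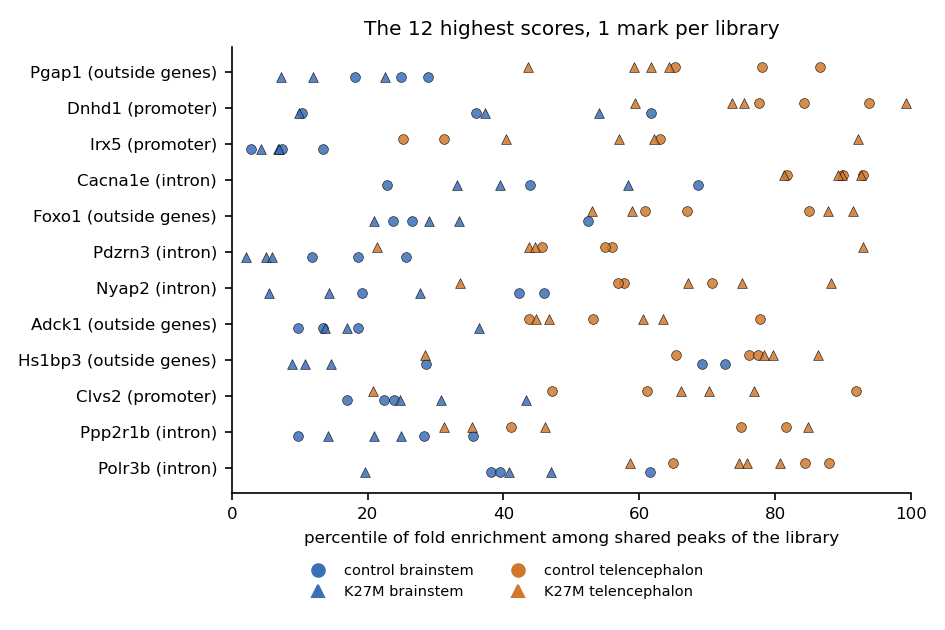
Percentile of fold enrichment (horizontal axis) of the 12 chosen peaks with the highest scores, 1 mark per library, with circles for control and triangles for K27M, blue for brainstem and orange for telencephalon. Rows give the assigned gene and place, and at Pgap1 the blue marks end at 28.9 and the orange marks begin at 43.7.

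Besides Pgap1, Irx5, Cacna1e, Foxo1 and Adck1, 6 of the 300 peaks separated the regions completely. The promoters of Cwc22, a splicing factor, and Supt7l, a subunit of a histone acetyltransferase complex, had gaps of 10.2 and 9.47 points. At Cwc22 the percentile ran from 22 to 46.8 in brainstem and from 57.0 to 69.2 in telencephalon. At Supt7l it ran from 5.87 to 25.2 and from 34.7 to 74.7. An intron of Plcb1, a phospholipase C, was high in both regions, from 23.1 to 82.6 (median 79.0) in brainstem and from 88.4 to 99.2 (median 91.5) in telencephalon. A region near Phtf2 (gap 5.07), an intron of Tom1l2, an adaptor of endosomal sorting (gap 1.08), and an intron of Jarid2, an accessory subunit of Polycomb repressive complex 2 (gap 0.196), completed the 11.

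Genes on 12 lists for region, lineage, matrix, cell cycle, signalling and cell type contributed 22 of the 300 peaks, out of 802 shared peaks assigned to a listed gene. The share of 2.74% stood beside 2.35% for all shared peaks, a near-background value. Median scores of the lists ran from -2.67 (microglia and endothelium, 8 shared peaks) to 2.21 (myelin and maturing oligodendrocyte, 77 shared peaks).

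Of 38 shared peaks at telencephalon identity genes, 1 was among the 300, and 20 had a score above 0. It lay at the promoter of Cux2, a homeobox factor of upper cortical layers (chr5:121925361-121927120), with percentiles from 5.77 to 38.9 in brainstem (median 26.3) and from 37.3 to 76.9 in telencephalon (median 57.9). The groups overlapped at 1 library on each side, control brainstem culture 59 and control telencephalon culture 59. Of 38 shared peaks at brainstem and hindbrain identity genes, 1, that of Irx5, was among the 300, and 2 were among the 300 lowest scores. The median scores of the 2 lists were 0.150 and -0.113.

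Transcription factors of the oligodendrocyte lineage held 5 of the 300 peaks out of 155 shared peaks, all outside promoters, at Sox6, Npas3, Bach2, Hes1 and Creb5. The intronic peak at Sox6, a factor that holds OPCs in the progenitor state, ran from 11.6 to 59.3 in brainstem (median 31.3) and from 44.0 to 74.1 in telencephalon (median 63.5). That at Npas3 was strong in both, from 35.6 to 83.6 (median 66.8) and from 76.0 to 95.2 (median 91.8). A region 56188 bp upstream of Hes1, a Notch target that represses differentiation, had medians of 44.7 and 62.0, and an intron of Bach2, a transcriptional repressor, of 16.6 and 41.6. The groups overlapped in all of these.

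OPC surface and matrix genes held 2 of 127 shared peaks, 73097 bp upstream of Ptprz1, a receptor phosphatase of OPCs, and in an intron of Lhfpl3, an OPC marker. Medians in brainstem and telencephalon were 47.2 and 62.0 at Ptprz1 and 14.9 and 24.9 at Lhfpl3, whose telencephalon libraries ran from 4.59 to 65.1. Myelin and maturing oligodendrocyte genes held 2 of 77, in introns of Enpp2, the enzyme autotaxin, and Cnp, a myelin enzyme. At Enpp2 the percentile ran from 14.1 to 45.8 in brainstem (median 35.6) and from 33.4 to 82.9 in telencephalon (median 67.9). The 4 K27M telencephalon libraries reached 47.9 to 82.9, and the regional difference was 8.92 points in control and 44.4 in K27M. The interaction, fitted with culture number as a block, was 34.2 ± 11.8 points (SE) and did not pass (limma, adjusted p = 0.930).

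Matrix and adhesion genes held 5 of 104 shared peaks, at Adamts9, Itgb5, Lamc1, Cdh13 and Lama1, and lipid and sterol synthesis genes 0 of 51. Adamts9, a matrix protease, ran from 23.1 to 75.5 in brainstem (median 38.7) and from 58.7 to 81 in telencephalon (median 75.9). Itgb5, an integrin subunit, showed the least separation of the named regions: the median was 13.8 in brainstem and 46.6 in telencephalon, yet 1 brainstem library reached 94.1. Lamc1, a laminin chain, had medians of 25 and 57.8, and Cdh13, an atypical cadherin, of 43.5 and 71.8.

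Cell cycle genes held 3 of 55 shared peaks. The promoter peak of Ccne2, cyclin E2, was 2928 bp wide. By fold it was among the weaker shared peaks of every brainstem library (7.48 to 16.4), and in telencephalon it ran from 6.75 to 73.2 (median 30.0). Its regional difference was 39.0 points in control and 4.45 in K27M, and the interaction from the same blocked fit was -31.4 ± 13.1 points (SE), which did not pass (limma, adjusted p = 0.930). A region 7903 bp downstream of the start of Cdkn2c, an inhibitor of CDK4 and CDK6, had a difference of 44.0 in control and 1.44 in K27M. Its interaction from the blocked fit, -39.0 ± 20.5 points (SE), did not pass either (limma, adjusted p = 0.934). A region 202693 bp from Myc, the growth-promoting transcription factor, had medians of 12.9 and 36.1.

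Signalling genes held 2 of 126 shared peaks, far upstream of Spred2, an inhibitor of RAS signalling (medians 39.1 and 73.2), and in an intron of Maml2, a Notch coactivator (14.2 and 48.9). Astrocyte genes held 1 of 14, in an intron of Slc1a2, a glutamate transporter (53.7 and 81.7), and neuronal, microglial and endothelial genes held 0. Ptprn2, a phosphatase-like protein of secretory vesicles, was the only gene with 3 of the 300 peaks, out of 8 shared peaks assigned to it. All 3 lay in introns, with scores of 23.9, 20.5 and 19.7. Their larger regional difference was not in the same genotype: it was 33.5 in control against 14.3 in K27M at the first, 4.97 against 36.1 at the second, and 30.7 against 8.80 at the last. Cps1, Exoc4, Polr3b, Rnf32, Sik3 and Unc5c held 2 each.

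Over the 12751 shared peaks the difference between telencephalon and brainstem in control and that in K27M had a Pearson correlation of 0.0956, a description across peaks that share libraries and therefore are not independent. The SD of the difference was 13.1 points in control and 11.4 in K27M. When 300 peaks were picked from control alone, their median difference was 30.2 in control and 2.11 in K27M, and 57.7% were above 0 in K27M, against 49.8% of all shared peaks. When 300 were picked from K27M alone, the median was 28.9 in K27M and 3.82 in control, with 59.0% above 0 in control against 50.8% of all shared peaks. The 2 lists had 20 peaks in common, which is 6.67% of each list, whereas 300 peaks are 2.35% of all shared peaks. Control and K27M libraries share culture numbers, so the 2 lists are not independent. Peaks also differed in how far they varied, with a score SD of 10.2 outside promoters and 8.34 at promoters. The part of either in the overlap was not tested. Of the 300 peaks described here, 121 were on the control list and 123 on the K27M list. In either case the median difference in the genotype that had not been used for the choice was above 0 and far below that in the genotype used.

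**Figure D3:**
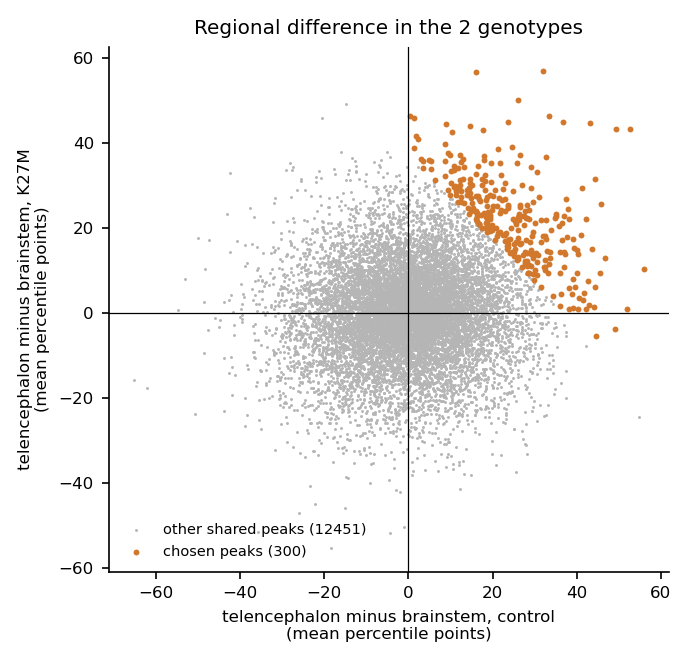
Telencephalon minus brainstem mean percentile in control (horizontal axis) and in K27M (vertical axis), in percentile points, for the 300 chosen peaks (orange) and the other shared peaks (grey). The grey cloud is nearly round (Pearson correlation 0.0956 over all 12751), and the chosen peaks are the part of it beyond a diagonal line, with 298 of 300 above 0 in K27M and 300 of 300 in control.

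The genotype contrast did not enter the score and was tested over all shared peaks with culture number as a block. K27M telencephalon had 4 libraries and the other groups 3, so the genotype and interaction contrasts are not fully independent of the score. The part of the selection in the differences given for the 300 peaks was not tested. K27M and control differed at 0 of the 300 peaks (limma, adjusted p under 0.05) and at 0 of the 12751 shared peaks (0%), with a smallest adjusted p of 0.687. At an unadjusted p under 0.05 there were 24 of the 300 peaks (8%) and 673 shared peaks (5.28%). Of these 24, 8 were higher and 16 lower in K27M. The median difference between K27M and control was -2.10 points in the 300 peaks and 0.157 in all shared peaks, 119 of the 300 were above 0, and the median SE of one peak was 9.31 points. Within brainstem, 0 of the 300 and 0% of the shared peaks passed, and 19 of the 300 and 709 shared peaks (5.56%) had an unadjusted p under 0.05. Within telencephalon 0 of the 300 and 0% passed as well, with 26 of the 300 and 649 shared peaks (5.09%) at an unadjusted p under 0.05. Of these 26, 7 were higher and 19 lower in K27M telencephalon.

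Whether the regional difference itself changed with genotype was tested by the interaction. It passed at 0 of the 300 peaks and at 0% of the shared peaks (limma, smallest adjusted p = 0.930), with 18 of the 300 and 676 shared peaks (5.30%) at an unadjusted p under 0.05. The median interaction was -0.609 points in the 300 peaks and the median SE 17 points.

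**Figure D4:**
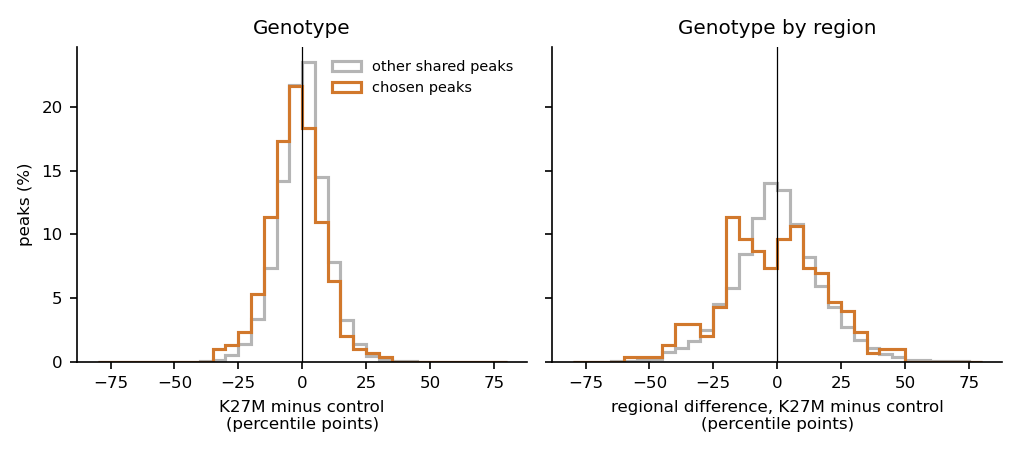
Distribution over peaks (vertical axis, percent of peaks) of the K27M minus control difference and of its interaction with region (horizontal axes, percentile points, bins of 5 points) for the 300 chosen peaks in orange and the other shared peaks in grey. The orange genotype curve is centred at -2.10 and that of all shared peaks at 0.157, and 0 peaks passed in either contrast.

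The place of the peaks was not part of the rule. Promoters, taken as 2 kb before to 1 kb after a coding start, held 94 of the 300 peaks (31.3%), against 63.1% of all shared peaks and 55.7% of the 300 peaks on the brainstem side. Introns held 115 (38.3%), against 17.4% and 18%, and 85 lay outside genes (28.3%), against 18% and 24%. Of the rest, 3 lay in untranslated exons, 2 at gene edges and 1 in a coding exon. The median distance to the nearest coding start was 26026 bp for the 300 peaks and 369 bp for all shared peaks, and 36.3% and 16.4% lay over 50 kb away. Scores varied more outside promoters (SD 10.2) than at promoters (SD 8.34). The brainstem tail held 133 of 4702 shared peaks outside promoters (2.83%), fewer than the 206 (4.38%) of the telencephalon tail. The mean percentile of all shared peaks outside promoters ran from 49.3 to 52.7 in brainstem and from 49.5 to 54.5 in telencephalon libraries, the highest in K27M telencephalon culture 61.

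The 300 peaks were poor in G and C. Their central 300 bp had a median of 48.7% G or C and 5 CpG dinucleotides, against 58.7% and 16 in all shared peaks and 57.3% and 14 on the brainstem side. Outside promoters the medians were 46.0%, 49.0% and 51.0%, and at promoters 60.8%, 65.0% and 65.0%. The Spearman correlation of percentile with G and C content over the shared peaks ran from -0.0357 to 0.0494 in brainstem and from -0.0985 to 0.0293 in telencephalon libraries. Its part in the choice of peaks was examined by ranking within classes of G and C content, chosen after seeing the data, which kept 251 of the 300 peaks and gave 41.3% at promoters. Widths were alike, with medians of 1563 bp for the 300 and 1666 bp for all shared peaks, and annotated repeats covered a median of 12% and 10.0%. The peaks were spread over all 19 autosomes, from 1.33% of the shared peaks of chromosome 18 to 3.63% of those of chromosome 10. They were mostly solitary: 14 had another of the 300 within 100 kb, and the 463 other shared peaks within that distance had a median score of 0.287, against -0.192 for all shared peaks outside the 300.

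Motifs were counted on both strands of the central 300 bp, and the broad peaks have no summit, so this window is the middle and not necessarily the most accessible part. CATATG, the OLIG E-box, was found in 24 of the 300 peaks (8%), in 2.53% of all shared peaks and in 2.33% on the brainstem side. Outside promoters the shares were 9.71%, 4.70% and 3.76%, and at promoters 4.26% of the 300 and 1.25% of the shared peaks. Among peaks outside promoters with under 49.0% G or C, 13.5% of 141 chosen and 7.16% of 2262 shared peaks held it. With more G and C, it was in 1.54% of 65 chosen and 2.42% of 2440 shared peaks. Over whole merged peaks, the shares were 26.0% of the 300 and 19.3% of the shared peaks.

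For the other motifs, shares are given outside promoters and for some also over all peaks. ACAANG, the SOX core, was in 54.3% of the 300 and 40.2% of the shared peaks, but in 62.6% and 59.0% outside promoters. TAATTA, which LHX, EMX and DLX homeodomain factors of the forebrain recognise along with many others, was in 8.33% and 4.13%, and in 9.71% and 8.44% outside promoters. GGGCGG was in 22% and 42.9% of all peaks, and in 6.31% and 12.6% outside promoters. TGANTCA, the AP-1 site, was in 10.7% and 6.27%, and outside promoters in 14.1% and 11.3%, with 15.0% on the brainstem side. CAGCTG, a general E-box, was in 25.2% of the chosen peaks outside promoters, in 28.8% of the shared peaks and in 38.3% on the brainstem side. CAGATG, the E-box of NEUROG and NEUROD, was in 29.1% and 26.3% outside promoters, and TGACAG, the MEIS site, in 19.4% and 22.4%. The other 10 motifs searched were TAATCC of OTX factors, TTGGCA of NFI factors, CACGTG of MYC and USF, CATTCC of TEAD factors, CCAAT of the NFY complex, CCGGAAG of ETS factors, AGGTCA of nuclear receptors, TGTTTAC of forkhead factors, ATCAAAG of TCF and LEF, and GTTGCC of RFX factors. Their shares were within 2.52 percentage points of the shared peaks outside promoters. No test was applied to these shares.

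**Figure D5:**
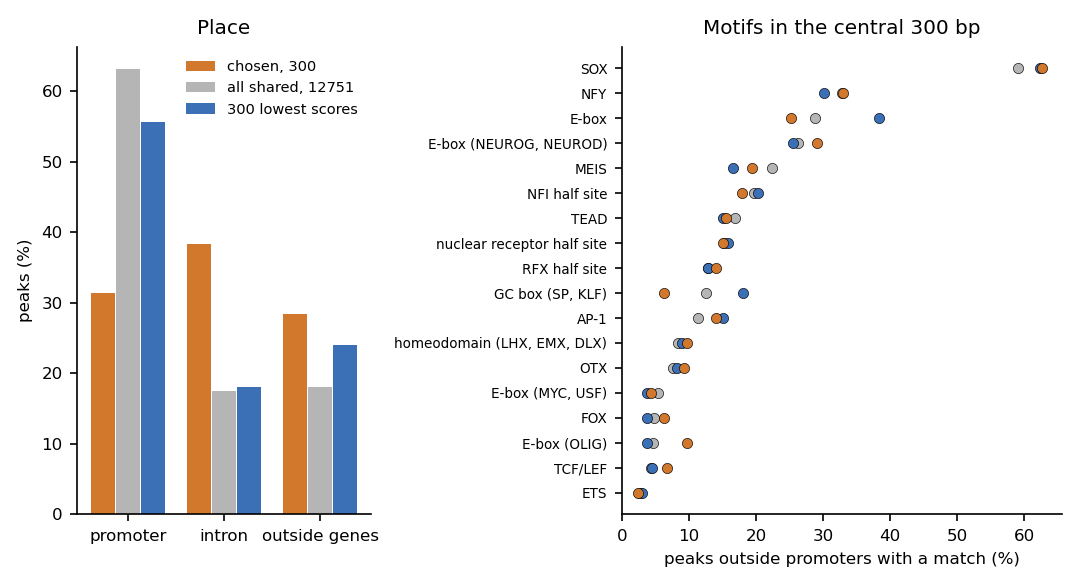
Left, percent of peaks (vertical axis) at promoters, in introns and outside genes for the 300 chosen peaks (orange), all 12751 shared peaks (grey) and the 300 lowest scores (blue). Right, percent of the peaks outside promoters with a match (horizontal axis) to each of the 18 motifs, named by factor family, in the same colours; chosen peaks were at promoters in 31.3% against 63.1% of all shared peaks, and the OLIG E-box was in 9.71% of them outside promoters against 4.70%.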

How the data were processed

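Omni-ATAC libraries of 13 OPC cultures were sequenced by the authors in paired-end mode. Adapters were trimmed with Trim Galore 0.6.7 and cutadapt 3.4, and reads were aligned to mm10 with BWA 0.7.17-r1188 in the nf-core ATAC-seq pipeline, with removal of blacklisted reads. The authors called broad peaks in each library by itself with MACS2 2.2.7.1. The deposited lists give per peak a fold enrichment over local background, not normalised between libraries, and the −log10 of the p-value and q-value. The deposited score, derived from the q-value, was not used. The cutoff of the calls is not given in the sources used here; the lowest deposited −log10 q was 1.00, and fold enrichment ran from 1.34 to 14.6. A library's value for a merged peak was the highest fold of its own peaks within it.

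Peaks overlapping by at least 1 bp were joined (Python 3.11.15, pandas 2.3.3). Percentiles, which remove differences in overall enrichment between libraries, were fitted with limma 3.58.1 (R 4.3.3) over all 12751 shared peaks, with 4 groups plus culture number as a block, and Benjamini-Hochberg adjusted p-values under 0.05 were called. The study accounts for matched cultures, which is why the block was kept. Deviations of same-numbered libraries from their group means correlated at -0.0482 to 0.158 (16 pairs, median 0.0650). Those of differently numbered libraries of other groups correlated at -0.192 to 0.240 (47 pairs, median -0.0346). These correlations were small and their ranges overlapped. Yet 9 of the 13 libraries were closest, among libraries of other groups, to one of their own number. How much variation a number shares was not tested.

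Genes were taken from GENCODE M21. A peak was assigned to the coding gene whose promoter, otherwise body, otherwise nearest start it met. Sequences came from the RefSeq copy of GRCm38. Named were the 12 highest scores, the 8 widest gaps between regions, up to 4 peaks per gene list, genes with at least 3 of the peaks, and the 3 peaks on either side of the threshold, together with every completely separated peak. Masp1 and Dhx15 were picked with their values in view. The peaks and gene lists were chosen with earlier results of these data known. Of 99746 merged peaks, 324 found in all libraries lay outside the autosomes and were left out. Signal tracks and other assays of the study were not used here.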

Additional observations from a re-analysis of the deposited data

Results flagged for a closer look

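Among 51 values examined in the 4 K27M telencephalon libraries (percentiles of the named peaks and library summaries), 6 had 1 library far from the other 3, by the ratio of its gap to the whole range. Chance gives about 1 in 20. The other groups held 3 libraries and were not examined in this way. At Hs1bp3 culture 59 was low (28.4, against 78.4 to 86.2 in the others, ratio 0.864), and at Bach2 the same culture was high (67.0, against 36.4 to 41.6, ratio 0.8293). At Zfp454, just below the threshold of the score, culture 41 was high (94.0, against 61.5 to 63.5, ratio 0.938). At Ptprz1 culture 41 was high (71.9, against 61.2 to 62.0, ratio 0.926). Culture 61 was low at Lamc1 (30.7, against 57.8 to 60.6, ratio 0.907) and at Spred2 (36.2, against 71.0 to 73.6, ratio 0.930). The regional difference differed between genotypes at 0 named peaks by the adjusted limma interaction, and 0 had complete separation in opposite directions in the 2 genotypes.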

How the results depend on the processing

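The peak lists hold no read counts, so differences in depth between libraries could be met only by ranking. Of the 300 peaks, 298 were kept with the mean fold of the called peaks, 300 with joins of at least 100 bp or without peaks over 5000 bp, 220 with centred log2 fold, 239 with the replicate block (same-numbered pairs only), 251 with ranks within classes of G and C content (chosen after seeing the data), 166 with the −log10 p ranked, 5 with called peaks of p at most 1e-10 (853 shared peaks, 5 of the 300 among them), 121 from control and 123 from K27M alone, and 167 (control telencephalon culture 59) to 247 without 1 library. The cause of these changes was not tested, except that the stricter p leaves few shared peaks. The 11 completely separated peaks became 1 with p at most 1e-10 and 15 to 25 without 1 library, where fewer libraries have to be separated: 25 and 21 without control brainstem cultures 59 and 61, 17 and 19 without K27M brainstem cultures 59 and 61, 18 without control telencephalon culture 51 or 59, and 18 and 20 without K27M telencephalon cultures 41 and 59. Promoters held 38.3% of the 300 peaks with all gene types (69.2% of shared peaks), 25.7% with the −log10 p ranked and 41.3% within classes of G and C content. Genotype and interaction calls among the 300 peaks were 0 under every alternative, without the replicate block and without each library (0 to 0) included. The regional contrast, which the rule used, was not tested: the difference was above 0 at all 300 peaks, and at all 5 that were left with p at most 1e-10. Of 912 recomputed scores of named peaks, which had been chosen for high scores, 6 moved by more than the spread between replicates. With the −log10 p ranked, Irx5 moved to 12.1, Adck1 to 22.1, Supt7l to 15.7, Phtf2 to 38.6 and Brinp2 to 24.2. Without control telencephalon culture 59, Brinp2 moved to 20.7. The 912 include scores with centred log2 fold, which have another unit and were checked for sign only. They cover 48 named peaks under 19 settings. The setting with p at most 1e-10 is not among these, as no named peak was matched in it. Of 54 recomputed motif shares, 35 left the interval of the main share. These shares were counted over whole merged peaks in place of the central 300 bp, or only over those of the 300 peaks at or outside promoters. They thus describe another window or another set of peaks than the main share, and the part of each was not tested.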
